A study of Macaca mulatta with 16 samples.

Results

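Of the 22515 genes counted in fetal lungs of rhesus macaques, 8 are described here: FCGR2A, FCAR, C5AR1, MCEMP1, LILRA5, CD177, GPR84 and SLC16A6. All but SLC16A6 are known as surface proteins of myeloid cells. The 8 genes were selected on their counts in each animal, which were higher 5 days after intraamniotic lipopolysaccharide (LPS) with betamethasone-acetate (Beta-Ac) than after LPS alone. That contrast is therefore given as a description, with no test. Each symbol matched 1 rhesus Ensembl gene of the table, and all 8 were among the 19199 genes with enough reads to be tested. The name of the set holds in part: FCGR2A, FCAR, LILRA5, C5AR1 and GPR84 are receptors, CD177 and MCEMP1 are surface proteins of neutrophils and other myeloid cells, and SLC16A6 is a transporter.

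The study asked how prenatal inflammation and a low dose of a corticosteroid, alone or joined, change the lung before birth, and 1 RNA library was made from the lung of each of 16 animals. Preterm controls, animals 092, 101, 113 and 209, were delivered at 131 to 135 days of gestation, and term controls, animals 200 and 201, at 156 and 157 days. Animals 026, 029, 035 and 038 received 1 mg of LPS into the amniotic fluid and were delivered 16 hours later, at 130 or 131 days. Animals 239, 240 and 242 were delivered 5 days after the same dose, at 131 to 134 days. In animals 248, 249 and 255 the same dose of LPS was joined by 0.125 mg/kg of Beta-Ac given intramuscularly to the dam, and delivery followed after 5 days, at 131 or 132 days. Animals given Beta-Ac alone were not analysed here, so the effect of the corticosteroid without LPS cannot be read from these values. The tissue was whole lung, a mixture of epithelium, mesenchyme, endothelium and blood-borne cells.

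Neutrophils, monocytes and macrophages read their surroundings through activating receptors. Receptors for the constant part of antibodies, together with relatives of the leukocyte immunoglobulin-like family, signal through tyrosine motifs that Src-family kinases such as LYN phosphorylate. Other receptors couple to G proteins and sense complement fragments, formylated peptides or fatty acids, and they steer movement and the oxidative burst. In an unexposed fetal lung such cells are sparse, and intraamniotic LPS is known to draw neutrophils and monocytes into it.

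Library totals ran from 20169363 to 48052891 counts, and the LPS 16-hour animals, at 30596371 to 48052891, were the deepest group. Levels are given as CPM, counts per 1000000 counts of a library, after TMM scaling, which corrects totals for differences in composition, and values within a group follow the order of the animal numbers above. CPM are not divided by gene length, so the 8 genes are not ranked against each other. A gene was called when limma gave it a Benjamini-Hochberg adjusted p under 0.05 with a change of 2-fold or more, which is a log2 fold change of 1, in either direction. P values measure the spread between these animals. In bulk tissue, fewer cells of a type and less RNA per cell cannot be told apart.

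FCGR2A, a low-affinity receptor for IgG with an activating motif in its own tail, had reads in every animal. Its CPM was 10.2, 10.7, 9.08 and 10.5 in preterm controls and 24.4 and 35.1 at term. After LPS it was 261, 214, 178 and 261 at 16 hours, and 14.8, 16.7 and 23.7 at 5 days. With added Beta-Ac it was 62.3, 44.6 and 51.5. The 5 groups fell apart completely: every LPS + Beta-Ac animal was above every LPS, term and preterm animal and below every LPS 16-hour animal.

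FCAR, the receptor for IgA, which pairs with the signalling chain FCER1G, was almost absent from preterm controls, at 0.0871, 0.0462, 0.106 and 0.0364 CPM, or 7 counts over 4 animals. The term controls had 0.551 and 0.776 CPM, and the LPS 5-day animals 0.327, 0.230 and 0.190. With added Beta-Ac the values were 2.60, 2.32 and 1.66, and at 16 hours they were 14.6, 11.1, 16.3 and 23.6. No groups overlapped here either, and term lay above LPS at 5 days.

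LILRA5, an activating member of the leukocyte immunoglobulin-like receptors that also pairs with FCER1G, was measured at 0.828, 0.508, 0.426 and 0.509 CPM in preterm controls and at 1.32 and 1.58 at term. It stood at 1.02, 0.998 and 1.61 in the LPS 5-day animals and at 4.22, 5.21 and 3.43 with added Beta-Ac. The LPS 16-hour animals had 18.6, 10.9, 14.8 and 9.25. Term and LPS at 5 days overlapped, while LPS + Beta-Ac and LPS at 16 hours each stood clear of all other groups.

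C5AR1, the receptor for the complement fragment C5a, had the smallest gap between LPS + Beta-Ac and LPS at 16 hours. Preterm controls had 11.4, 10.1, 8.87 and 8.98 CPM, term controls 28.0 and 17.3, and LPS 5-day animals 15.4, 12.3 and 18.9. Added Beta-Ac gave 36.7, 50.6 and 30.9, and LPS at 16 hours gave 68.8, 50.9, 66.7 and 63.6. Animals 249 and 029 therefore nearly touched, with the lowest 16-hour value 1.01-fold the highest LPS + Beta-Ac value, and term overlapped with LPS at 5 days.

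GPR84 is a receptor for medium-chain fatty acids that activated macrophages and neutrophils carry. Preterm controls had 0.0436, 0, 0.0355 and 0.0364 CPM, 3 counts in all, and the term controls differed from each other, with 3.46 in animal 200 and 0.226 in animal 201. LPS at 5 days gave 2.58, 1.46 and 2.14, added Beta-Ac 14.9, 12.8 and 7.36, and LPS at 16 hours 90.6, 77.5, 109.9 and 83.1. Both LPS 5-day groups stood above the preterm controls without overlap, and the term controls lay on either side of LPS at 5 days.

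CD177, a lipid-anchored neutrophil protein that binds endothelial PECAM1 and holds proteinase 3 at the surface, was at 0.653, 0.555, 0.922 and 0.509 CPM in preterm controls and at 1.29 and 1.87 at term. It was 0.907, 1.50 and 1.52 after LPS at 5 days, 6.47, 3.80 and 3.24 with added Beta-Ac, and 53.6, 45.6, 63.9 and 45.3 at 16 hours. LPS at 5 days overlapped with both control groups, and the lowest 16-hour animal was at 6.99-fold the highest LPS + Beta-Ac animal, the widest such gap among the members.

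MCEMP1, a single-pass membrane protein first described in mast cells and carried by monocytes and neutrophils, had 2 counts in all preterm controls together, at 0, 0, 0.0355 and 0.0364 CPM. The term controls had 0.110 and 0.679 CPM, and the LPS 5-day animals 0.653, 0.192 and 0.237. Added Beta-Ac gave 5.04, 2.82 and 3.12, and LPS at 16 hours 27.2, 19.0, 24.4 and 20.5. Every LPS 5-day animal was above every preterm control, and the term pair spanned the LPS 5-day animals.

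SLC16A6 is a member of the monocarboxylate transporter family. Its CPM was 0.218, 0.508, 0.355 and 0.218 in preterm controls, 0.368 and 0.485 at term, and 0.218, 0.192 and 0.237 after LPS at 5 days. Added Beta-Ac gave 0.790, 1.16 and 1.00, and LPS at 16 hours 1.81, 1.55, 2.56 and 1.72. Here the LPS 5-day animals lay inside or below the range of the preterm controls, so the order of the group means ended with LPS at 5 days.

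**Figure D1:**
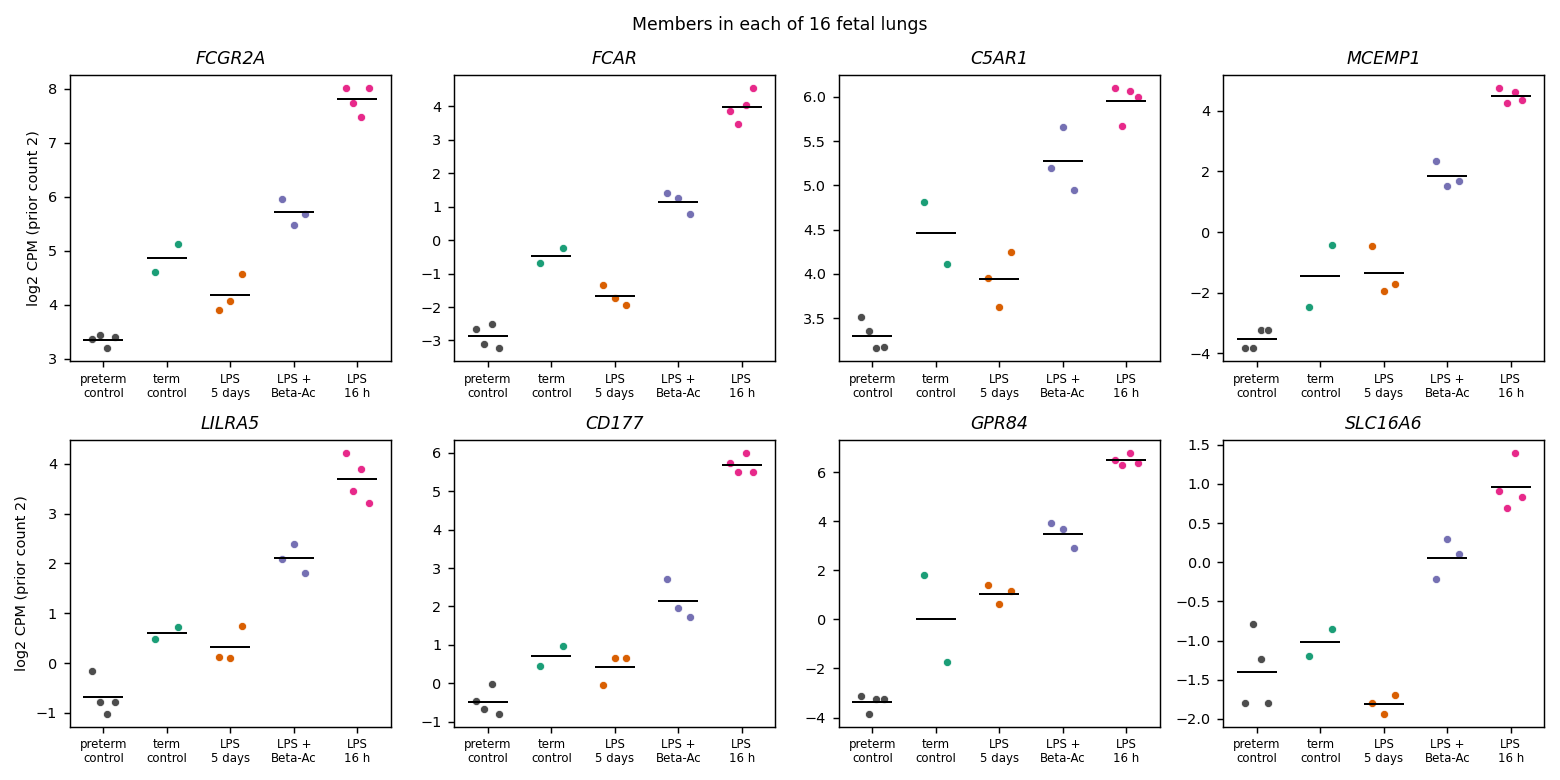
Log2 CPM (vertical axis, prior count 2) of the 8 genes in 5 groups, with 1 point for each animal and a black bar for the group mean. In all 8 panels the LPS 16-hour animals are highest and the LPS + Beta-Ac animals come next without overlap, and C5AR1 shows the narrowest gap between those groups.

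For 6 of the 8 genes the group means ran, from high to low, LPS at 16 hours, LPS + Beta-Ac, term, LPS at 5 days, preterm. GPR84 had LPS at 5 days above term, and SLC16A6 had it below the preterm controls. Neighbours in this order that overlapped were term and LPS at 5 days for C5AR1, MCEMP1, LILRA5, CD177 and GPR84, LPS at 5 days and preterm for CD177 and SLC16A6, and term and preterm for SLC16A6. Within LPS + Beta-Ac, animal 248 had the highest value for 5 genes and animal 249 for 3, while animal 255 had the lowest for 5. Summed over the 8 genes, levels were 19.8 to 23.4 CPM in preterm controls, 58.0 to 59.6 at term, 33.6 to 48.6 after LPS at 5 days, 102 to 133 with added Beta-Ac and 431 to 536 after LPS at 16 hours.

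LPS at 16 hours against preterm controls asks what acute exposure did, in animals outside the contrast that chose the genes. All 8 genes were called higher, where 8.3% of all tested genes were called higher. FCGR2A rose by a log2 fold change of 4.47 (SE 0.173, adjusted p = 2.65e-10, limma) and LILRA5 by 4.38 (SE 0.259, adjusted p = 6.55e-09, limma). CD177 rose by 6.18 (SE 0.254, adjusted p = 2.81e-10, limma), the largest change among the 5 members with enough control reads for a fold. C5AR1 rose by 2.66 (SE 0.189) and SLC16A6 by 2.36 (SE 0.282), with limma adjusted p of 4.54e-08 and 1.03e-05.

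FCAR, MCEMP1 and GPR84 averaged under 4 counts in preterm controls, so their fold is given as a ratio of pooled counts per scaled library size, with an exact 95% interval that covers counting error only. At 16 hours the ratio to preterm was 234 (113 to 583) for FCAR, 1130 (313 to 9360) for MCEMP1 and 3050 (1040 to 14800) for GPR84. These 3 genes were under the CPM limit for testing, 0.371, in every preterm control, and SLC16A6 was above it in preterm control 101 only. They and SLC16A6 passed the filter through other groups, so the number of members called is a description of the set and not support for it. All 8 stayed called under each alternative tried, with any animal left out.

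LPS at 5 days against preterm controls asks what was left of that response. Of the 8 genes, 4 were called higher, where 2.6% of all tested genes were. LILRA5 rose by a log2 fold change of 1.01 (SE 0.28, adjusted p = 0.0247, limma), at the edge of the fold limit. FCAR, MCEMP1 and GPR84 were called with limma adjusted p of 0.0145, 0.00467 and 0.000409, and their pooled ratios were 3.64 (1.47 to 10.3), 18.8 (4.74 to 163) and 68.9 (23.1 to 338). FCAR was under the CPM limit for testing, 0.371, in every animal of this comparison, and MCEMP1 was above it in LPS animal 239 only. GPR84 was under it in every preterm control. These genes passed the filter through groups where they were higher, so the number called is a description of the set and not support for it. The LPS animals of this comparison also entered the contrast that chose the genes. The genes were chosen as lower in them than in LPS + Beta-Ac animals, which works against a rise here. What was left of the response can therefore be understated, also for the genes of the next paragraph.

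FCGR2A, C5AR1 and CD177 passed the p limit but not the fold limit at 5 days, with log2 fold changes of 0.83 (SE 0.187), 0.64 (SE 0.205) and 0.91 (SE 0.275) and limma adjusted p of 0.00815, 0.0468 and 0.0358. SLC16A6 had a log2 fold change of -0.41 (SE 0.304) and did not pass, with adjusted p = 0.425 in limma. The call of LILRA5 was lost without preterm control 101, 113 or 209 or LPS animal 242, and that of FCAR without LPS animal 239. CD177 was called without preterm control 113, and also without LPS animal 239. A fit to these 7 animals alone called 1 gene, GPR84, and FCAR, MCEMP1 and SLC16A6 had too few reads to be tested in it.

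Term against preterm controls asks which genes rise with gestation, with only 2 term animals. Of the 8 genes, 7 were called higher, where 1.11% of all tested genes were. FCAR, MCEMP1 and GPR84 were under the CPM limit for testing in every preterm control and passed it through other groups. This count is therefore a description of the set and not support for it. FCGR2A rose by a log2 fold change of 1.53 (SE 0.212, adjusted p = 0.00266, limma), C5AR1 by 1.16 (SE 0.232, adjusted p = 0.0141, limma), LILRA5 by 1.29 (SE 0.318, adjusted p = 0.0358, limma) and CD177 by 1.19 (SE 0.311, adjusted p = 0.0461, limma). FCAR, MCEMP1 and GPR84 were called with limma adjusted p of 0.00266, 0.0338 and 0.0126, at pooled ratios of 9.61 (4.25 to 25.5), 20.7 (5.14 to 181) and 58.1 (19.3 to 286). SLC16A6 had a log2 fold change of 0.38 (SE 0.345) with adjusted p = 0.609 in limma.

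These calls rested on few animals. Without term control 200, 3 of the 8 genes were called, and C5AR1 had a log2 fold change of 0.81 (adjusted p = 0.193, limma), while GPR84 had an adjusted p of 0.0882 in limma. That animal held 94 of the 101 GPR84 counts at term, and without it the pooled ratio was 7.56 (1.73 to 45.3). Without term control 201, 4 were called, and the adjusted p of MCEMP1 was 0.33 in limma. That animal held 21 of the 24 MCEMP1 counts, and without it the ratio was 5.53 (0.633 to 66.2). The ratio of GPR84 without animal 201 was 116 (38.3 to 570.0), and that of MCEMP1 without animal 200 was 34 (8.32 to 299). Leaving out preterm control 101 also left 4. FCGR2A and FCAR stayed called when any 1 animal was left out, and in the fit to these 6 animals alone 1 gene was called, FCGR2A.

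LPS at 16 hours against term puts acute exposure beside the level reached by gestation. All 8 genes were called higher, where 7.4% of all tested genes were. MCEMP1 in term animal 200 (0.110 CPM) and GPR84 in term animal 201 (0.226 CPM) were under the CPM limit for testing, 0.371. That limit applies to CPM before TMM scaling, and SLC16A6 in term animal 200 was close to it, at 0.368 CPM after scaling. MCEMP1 and GPR84 passed the filter through groups with higher levels, so this count is a description of the set and not support for it. The log2 fold changes of the receptors were 2.94 for FCGR2A, 4.45 for FCAR, 3.10 for LILRA5, 1.50 for C5AR1 and 6.45 for GPR84. CD177 rose by 4.99, MCEMP1 by 5.94 and SLC16A6 by 1.98. The limma adjusted p ran from 5.76e-08 for CD177 to 0.000557 for SLC16A6. The 3 comparisons with preterm controls share those animals, and this one shares the 16-hour and term animals with them.

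**Figure D2:**
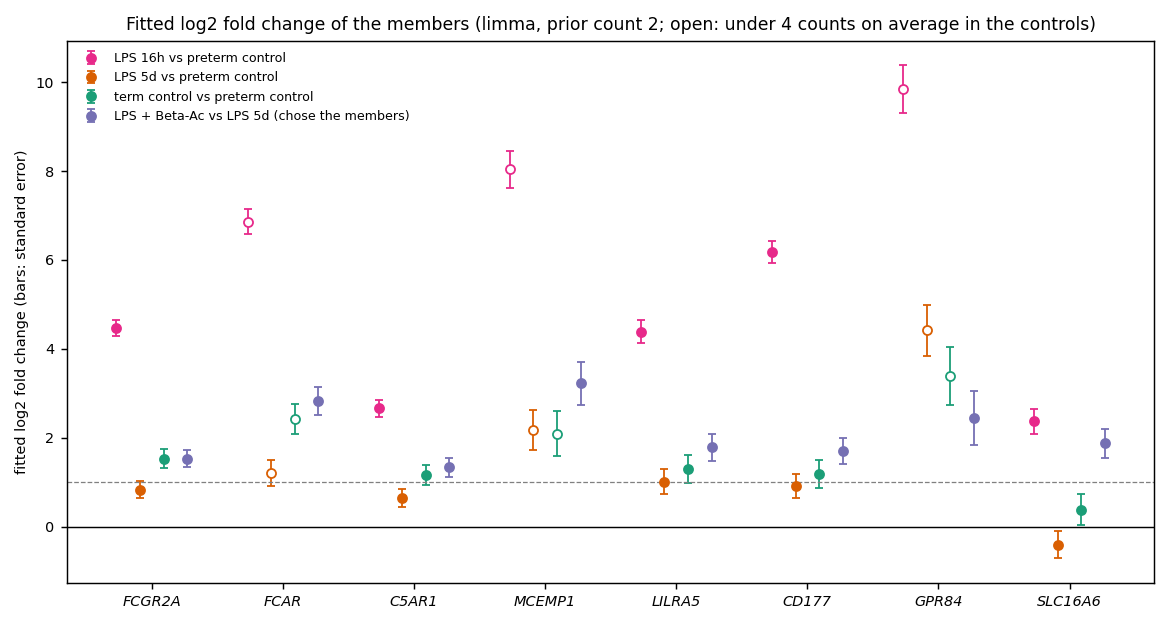
Fitted log2 fold changes (points) with standard errors (bars) of the 8 genes in 4 comparisons, with a dashed line at the fold limit of 1. Open points mark genes with under 4 counts on average in preterm controls, whose fitted fold depends on the prior count. The LPS 16-hour points are highest for all genes, and SLC16A6 is the only gene with an LPS 5-day point below 0.

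LPS + Beta-Ac against LPS at 5 days is the contrast that chose the genes. Over all tested genes, 20 were called higher, 0.104%, and 0 lower by limma, where 648 were higher and 277 lower at an unadjusted p under 0.05 and limma voom called 3 in all. The ratio of the LPS + Beta-Ac mean to the LPS mean was 10.2 for MCEMP1 and 8.8 for FCAR. GPR84 stood at 5.69-fold, SLC16A6 at 4.56-fold, LILRA5 at 3.55-fold and CD177 at 3.45-fold, and FCGR2A at 2.86-fold and C5AR1 at 2.54-fold had the smallest ratios.

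The fitted log2 differences, with standard errors and no test, were 3.22 ± 0.475 for MCEMP1, 2.82 ± 0.32 for FCAR, 2.44 ± 0.613 for GPR84, 1.87 ± 0.325 for SLC16A6, 1.78 ± 0.299 for LILRA5, 1.70 ± 0.293 for CD177, 1.53 ± 0.2 for FCGR2A and 1.33 ± 0.219 for C5AR1. The lowest LPS + Beta-Ac animal was between 1.63-fold (C5AR1) and 5.07-fold (FCAR) the highest LPS animal. By the choice of the genes, all 8 were higher without overlap, against 6.33% of all tested genes.

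The level with added Beta-Ac remained below the 16-hour level for every member. As a percentage of the LPS 16-hour mean, it was 63.1% for C5AR1 and 51.5% for SLC16A6, the members nearest to the acute level, then 32.0% for LILRA5 and 23.1% for FCGR2A. The others were at 16.1% (MCEMP1), 13.4% (FCAR), 13% (GPR84) and 8.65% (CD177). On the log2 scale the LPS + Beta-Ac mean had covered between 32.3% (CD177) and 67.5% (SLC16A6) of the distance from LPS at 5 days to LPS at 16 hours. CD177 was thus the member at which LPS + Beta-Ac lay nearest to LPS alone by this measure, and CD177 had the smallest percentage of the acute level as well.

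Against term, LPS + Beta-Ac means were 9.28-fold for MCEMP1, 6.36-fold for GPR84, 3.3-fold for FCAR and 2.95-fold for LILRA5. They were 2.85-fold for CD177, 2.31-fold for SLC16A6, 1.77-fold for FCGR2A and 1.74-fold for C5AR1. All 8 were above term without overlap, where 15.6% of tested genes were. The values of the same LPS + Beta-Ac animals chose the genes, so no test is given here and nothing is read from this count. The narrowest gap was again C5AR1, whose lowest LPS + Beta-Ac animal was 1.1-fold the higher term control.

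Genes that work with these receptors were read from lists written with earlier results of these data known, so their counts are descriptions. Among 18 Fc receptors and their signalling partners with reads, 12 were called higher at 16 hours, among them FCGR1A, the high-affinity receptor for IgG, at a log2 fold change of 4.24 (SE 0.287, adjusted p = 2.75e-08, limma), and FCER1G, the chain that carries FCAR and LILRA5, at 3.45 (SE 0.253, adjusted p = 6.01e-08, limma). Of 29 paired receptors, the immunoglobulin-like and C-type lectin families that hold activating and inhibitory forms, 26 were called higher, with TREM1, an amplifier of inflammatory signals, at 7.72 (SE 0.434, adjusted p = 6.55e-09, limma). Of 23 chemoattractant receptors, 16 were called higher and 1 lower, with FPR1, which senses formylated peptides, at 7.01 (SE 0.473, adjusted p = 3.16e-08, limma). The median log2 fold changes of the lists were 1.78, 3.12 and 1.70, against -0.0874 over all tested genes, of which 8.3% were called higher.

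The same lists at 5 days after LPS had 6 of 18, 13 of 29 and 5 of 23 genes called higher against preterm controls, and at term 7 of 18, 7 of 29 and 3 of 23. Of all tested genes, 2.6% were called higher at 5 days and 1.11% at term. At 5 days FCER1G was at a log2 fold change of 1.27 (SE 0.273, adjusted p = 0.0061, limma) and FCGR1A at 1.09 (SE 0.31, adjusted p = 0.0279, limma). At term FCER1G was at 1.48 (SE 0.31, adjusted p = 0.0179, limma), and C3AR1, the receptor for complement fragment C3a, at 1.70 (SE 0.371, adjusted p = 0.0223, limma).

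Few of these partners were called when Beta-Ac was added. VAV1, a signalling protein downstream of such receptors, was at 24.6 CPM against 9.16, with a log2 fold change of 1.40 (SE 0.25, adjusted p = 0.0496, limma). CLEC4A, a C-type lectin with an inhibitory motif, had 1.30 (SE 0.199, adjusted p = 0.028, limma), and PTAFR, the receptor for platelet-activating factor, 1.46 (SE 0.23, adjusted p = 0.0327, limma). In all, 2 of 18, 1 of 29 and 1 of 23 list genes were called, where 0.104% of all tested genes were. The lists' median log2 fold changes were 0.919, 1.18 and 0.748, against -0.000522 over all tested genes. Of their genes, 12, 20 and 15 were higher without overlap, where 6.33% of all tested genes were.

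The calls among partners depended on single animals. In the fit to these 6 animals alone limma called 0 genes of the whole table, with 809 higher and 418 lower at an unadjusted p under 0.05, and without LPS animal 240 or LPS + Beta-Ac animal 249 no gene of these 3 lists was called. Without LPS + Beta-Ac animal 255, whose values were lowest for 5 of the 8 members, 57 genes of the table were called, among them 5 of the 18, 4 of the 29 and 2 of the 23.

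**Figure D3:**
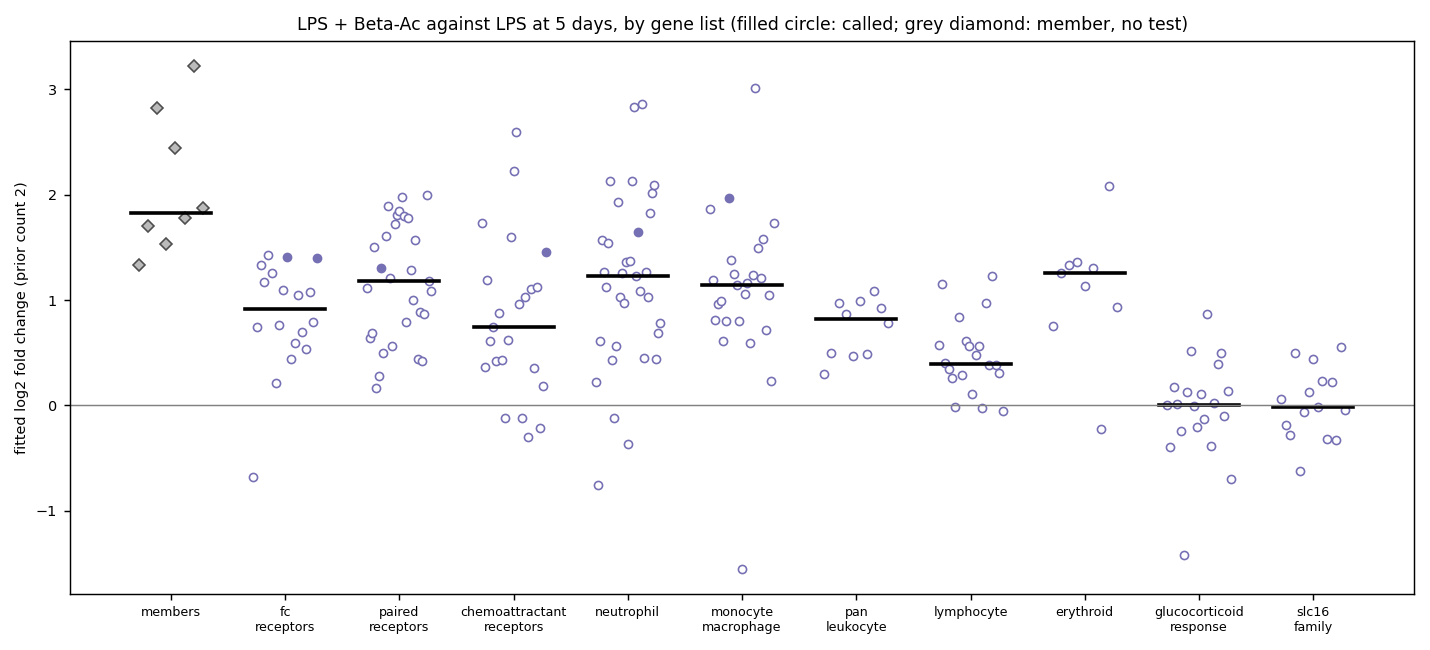
Fitted log2 fold changes (prior count 2) of LPS + Beta-Ac against LPS at 5 days, with 1 point for each gene, in the 8 chosen genes (grey diamonds, no test) and 10 gene lists, with a black bar for each median. Filled circles are called genes. The medians of the receptor, neutrophil, monocyte/macrophage, pan-leukocyte and erythroid lists lie between 0.748 and 1.25, and those of the glucocorticoid response and SLC16 lists lie near 0.

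Summed markers of myeloid cells and of leukocytes in general also differed between the groups. The summed level of 34 neutrophil genes was 195 to 299 CPM in preterm controls, 536 to 578 at term, 461 to 654 after LPS at 5 days, 833 to 1380 with added Beta-Ac and 2630 to 3340 at 16 hours. For 25 monocyte and macrophage genes the ranges were 382 to 542, 581 to 845, 637 to 671, 949 to 1520 and 1750 to 2190, and for 10 pan-leukocyte genes 319 to 399, 470 to 707, 484 to 629, 677 to 1160 and 1130 to 1430. All 3 sums were higher in every LPS + Beta-Ac animal than in any LPS animal at 5 days. The pan-leukocyte sums of LPS + Beta-Ac and LPS at 16 hours overlapped, which was the case for no member. Single genes weighed on these sums. MME, in the neutrophil list, had a mean of 151 CPM at term and 198 with added Beta-Ac. MMP9, in the same list, had means of 190 CPM with added Beta-Ac and 43.6 after LPS at 5 days. At 16 hours, S100A9 of that list had a mean of 958 CPM, and VCAN, in the monocyte and macrophage list, 579 CPM. Which cells carried these reads was not tested. MARCO, a scavenger receptor of macrophages, was at 0 in all preterm controls.

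With added Beta-Ac, 1 of 33 tested neutrophil genes was called. CD163, a haemoglobin scavenger receptor, was the 1 of 25 monocyte and macrophage genes called, at 92.4 CPM against 23.0 and a log2 fold change of 1.97 (SE 0.347, adjusted p = 0.0496, limma). None of 10 pan-leukocyte genes was called by limma or limma voom, with 8 higher at an unadjusted p under 0.05. The list medians were 1.23, 1.15 and 0.823, and 17, 21 and 7 genes were higher without overlap. Of all tested genes, 0.104% were called higher in this comparison and 6.33% were higher without overlap. The call of CD163 was lost when animal 239, 240, 242, 248 or 249 was left out.

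The summed lymphocyte, erythroid and platelet genes were likewise higher in every LPS + Beta-Ac animal than in any LPS animal at 5 days, and the mast cell, eosinophil and basophil sum was not. Summed lymphocyte genes were 151 to 199 CPM after LPS and 200 to 263 with added Beta-Ac, nearly touching, and 0 of 20 were called by limma or limma voom, with 3 higher at an unadjusted p under 0.05. Summed erythroid genes were 16.3 to 51.2 CPM after LPS and 66.0 to 73.8 with added Beta-Ac, at a list median of 1.25 with 0 of 9 genes called by limma or limma voom and 4 higher at an unadjusted p under 0.05. The platelet list, at 26.2 to 32.0 CPM after LPS and 38.0 to 42.8 with added Beta-Ac, had a median of 0.503, with 0 of 9 called by either and 2 higher at an unadjusted p under 0.05, and the mast cell, eosinophil and basophil list a median of 0.174, with 0 of 10 called and 0 at an unadjusted p under 0.05. Over all 19199 tested genes, 0.104% were called higher in this comparison, and 648 were higher at an unadjusted p under 0.05. At that share of calls, 0 called in lists this short says little. The share of the members' difference that goes with these cell markers was not tested.

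Of 20 genes known to respond to glucocorticoids, 0 were called by limma or limma voom between LPS + Beta-Ac and LPS at 5 days, with 1 higher and 1 lower at an unadjusted p under 0.05, and their median was 0.00717. Their summed level was 1880 to 1960 CPM with added Beta-Ac and 1990 to 2340 after LPS, so it was lower with added Beta-Ac without overlap. The 15 tested genes of the SLC16 family and its partners other than SLC16A6 had a median of -0.0178, with 0 called by limma or limma voom and 0 at an unadjusted p under 0.05. The 12 lung tissue genes, which check the labelled tissue, summed to at least 10900 CPM in every animal, with a median of 0.102 and 0 called by either in this comparison. Only 0.104% of all 19199 tested genes were called higher by limma and 0 lower, so 0 called in lists this short says little.

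**Figure D4:**
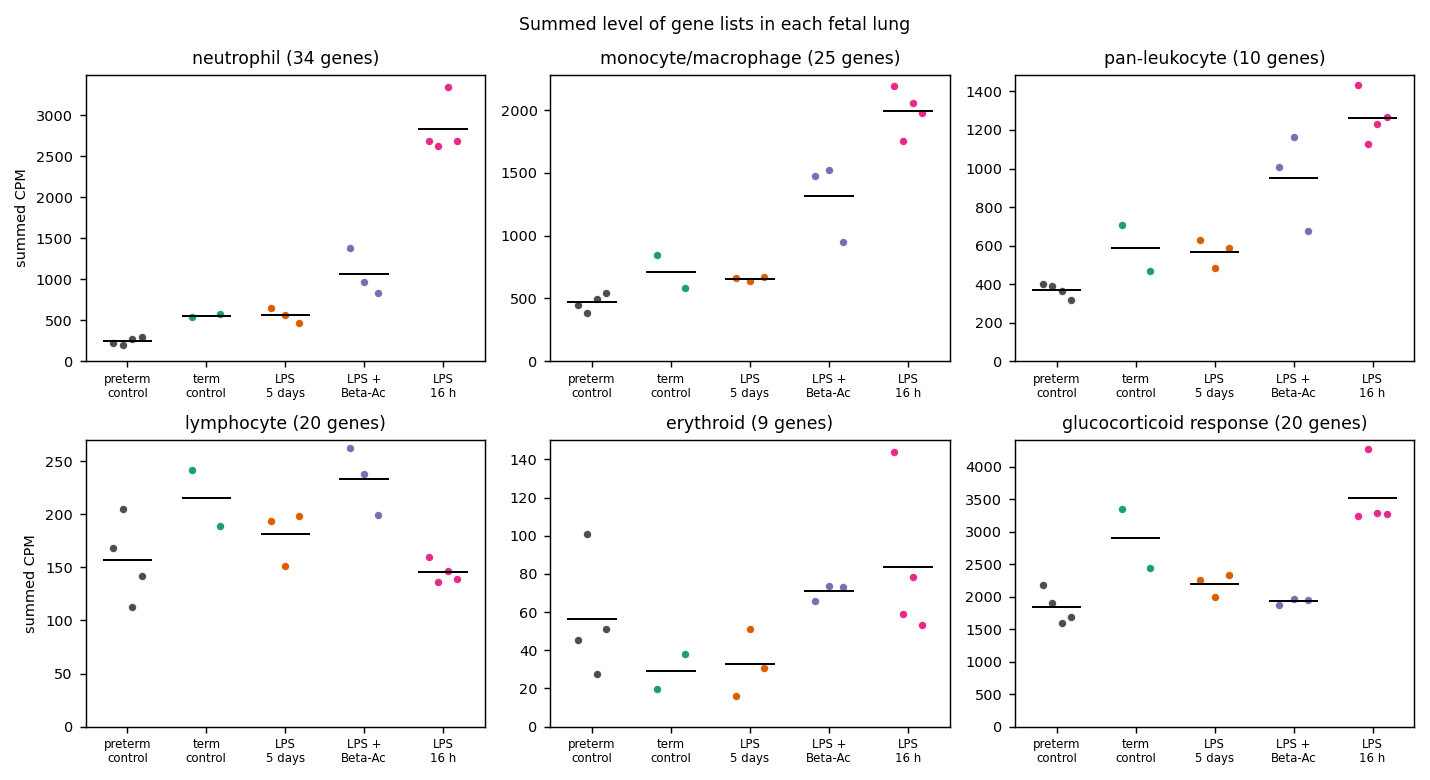
Summed CPM (vertical axis, from 0) of 6 gene lists in each animal, with a black bar for the group mean. Neutrophil, monocyte/macrophage, pan-leukocyte, lymphocyte and erythroid sums are higher in every LPS + Beta-Ac animal than in any LPS 5-day animal. The glucocorticoid response sum is lower in every LPS + Beta-Ac animal than in any LPS 5-day animal.

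The members were then read per 1000 CPM of the 10 pan-leukocyte genes in the same animal. On that scale LPS + Beta-Ac lay above LPS at 5 days without overlap for 7 of the 8 genes, against 0.719% of all tested genes. The same animals' values chose the genes, so nothing is read from this count. FCAR was 1.99 to 2.58 with added Beta-Ac and 0.322 to 0.519 after LPS, MCEMP1 2.43 to 5.01 against 0.397 to 1.04, and GPR84 10.9 to 14.9 against 3.02 to 4.10. C5AR1 was 36.5 to 45.6 against 24.5 to 32.2. FCGR2A overlapped, at 38.4 to 76.0 against 23.6 to 40.3.

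Per 1000 CPM of neutrophil genes LPS + Beta-Ac lay above LPS without overlap for FCAR, MCEMP1, CD177, GPR84 and SLC16A6, 5 of the 8 genes (0.318% of all tested genes). Per monocyte and macrophage genes it did so for 6, these 5 and LILRA5 (0.385% of all tested genes), again in the contrast that chose the genes. In the comparison of LPS at 16 hours with preterm controls, 7 genes were higher without overlap per pan-leukocyte genes, all but SLC16A6, where 2.19% of all tested genes were. Per neutrophil genes 4 were higher, FCAR, MCEMP1, CD177 and GPR84, where 0.703% of all tested genes were, and C5AR1 was lower, as were 93.6%. These ratios are descriptions, since the denominators are list sums that themselves differ between groups.

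**Figure D5:**
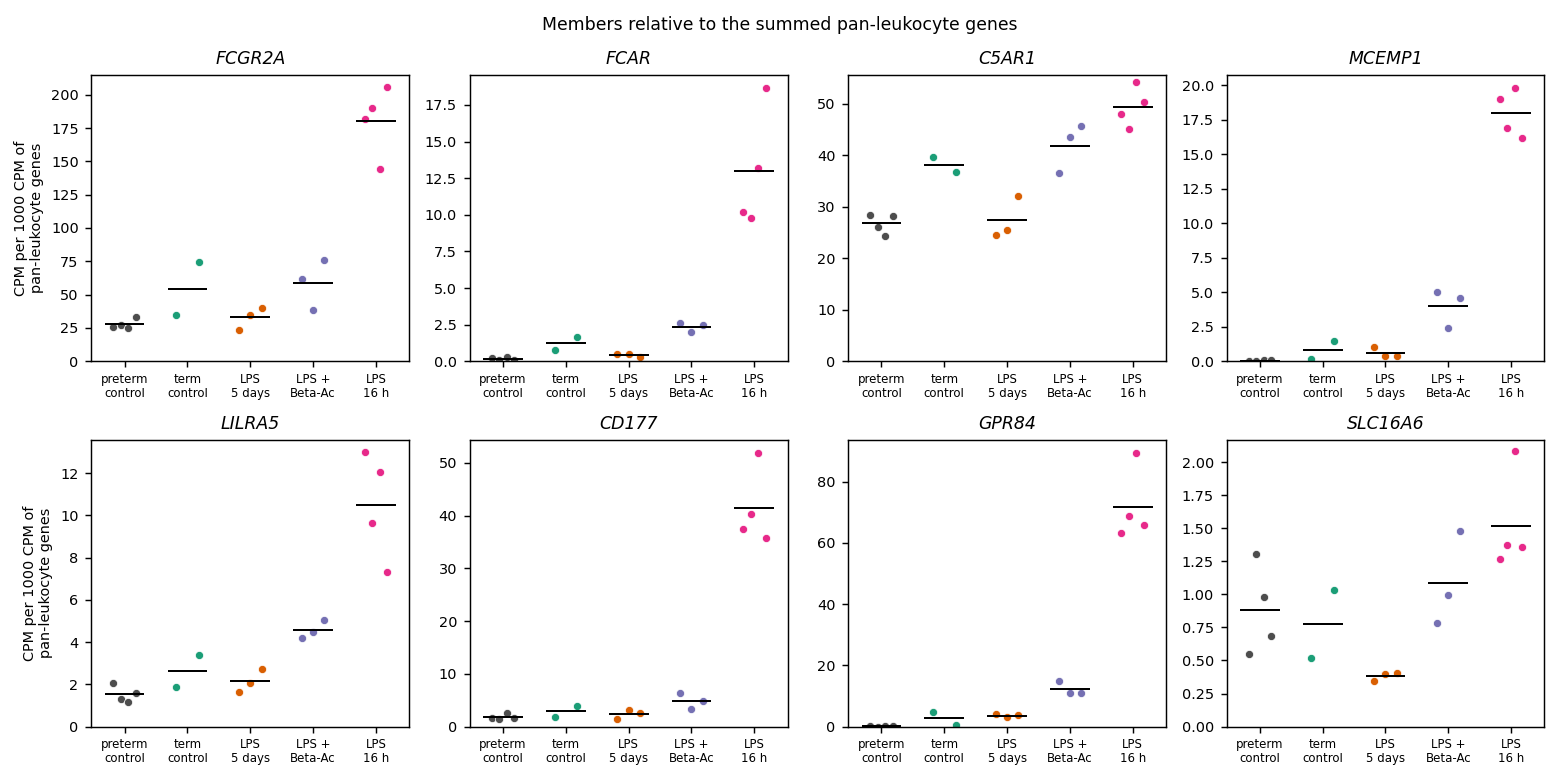
CPM of each of the 8 genes per 1000 CPM of 10 pan-leukocyte genes in the same animal (vertical axis, from 0), with a black bar for the group mean. FCGR2A is the only panel in which LPS + Beta-Ac and LPS at 5 days overlap.

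The genes whose log2 CPM followed the mean standardized level of the 8 members most closely over 16 animals, among those reported here, were FGR (Pearson r = 0.987), ALOX5AP (0.981), IL2RG (0.980), TLR4 (0.979), C19H19orf38 (0.978), PIK3AP1 (0.978) and LCP1 (0.976). The animals share groups and libraries, so these values are descriptive.

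Gene by gene, the closest patterns among the genes reported here were CLEC4A for FCGR2A (r = 0.986), FGR for FCAR (0.983), ITGAM for C5AR1 (0.987), CLEC5A for MCEMP1 (0.979) and TLR4 for LILRA5 (0.979). SOD2 was closest to CD177 (0.990) and C3AR1 to GPR84 (0.991). SLC16A6 had the weakest best match, EMILIN2 at 0.927, over the same 16 animals.

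Near relatives bear on how far reads can be assigned to 2 of the members. FCGR2A and LILRA5 belong to families of related genes among which pseudoalignment can split reads. Whether it did so was not tested, so their absolute levels are uncertain, and FCGR2B was not analysed here. FCGR3, another IgG receptor, was at 2.91 to 6.21 CPM in preterm controls, 11.5 to 18.1 at term, 8.85 to 12.9 after LPS at 5 days, 18.3 to 33.2 with added Beta-Ac and 27.9 to 40.2 at 16 hours. LILRA6 was at 0 to 0.106, 0.291 to 0.698, 0.345 to 0.726, 1.73 to 2.94 and 0.931 to 8.81 in the same order of groups, and LILRB3, an inhibitory relative, at 0.816 to 2.05, 3.23 to 3.75, 2.79 to 3.80, 4.39 to 7.02 and 7.27 to 14. All 3 relatives were higher with added Beta-Ac than after LPS alone without overlap, where 6.33% of all tested genes were. FCGR3 and LILRA6 overlapped between LPS + Beta-Ac and LPS at 16 hours, where FCGR2A and LILRA5 did not.

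C5AR2, the second receptor for C5a, neighbours C5AR1 in the RefSeq annotation of the T2T-MMU8v2.0 assembly. It was at 6.24 to 8.41 CPM in preterm controls, 9.86 to 11.7 at term, 7.64 to 8.48 after LPS at 5 days, 10.2 to 10.5 with added Beta-Ac and 11.2 to 14.4 at 16 hours. C5AR2 too was higher with added Beta-Ac than after LPS alone without overlap, where 6.33% of all tested genes were. The span of C5AR2 over the groups was narrower than that of its neighbour. In the same annotation FCAR lies between KIR3DL12 and NCR1, and LILRA5 next to LILRA3.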

How the data were processed

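Whole lung RNA was sequenced as 75 bp paired-end reads. The authors assigned reads with kallisto to the rhesus genome build Mmul_10, summarized them per gene with tximport and compared groups with DESeq2. The authors deposited a table of whole-number counts, without normalization, for 22515 Ensembl genes in 16 animals. No source used here states the versions of these tools or the annotation release. The table's columns have bare numbers as names, which the unit check could not address, so its unit was recorded as other and count models were not run.

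Counts were scaled by TMM, trimming 30% of log ratios and 5% of mean levels, put on the log2 CPM scale (prior count 2) and fitted with limma 3.58.1 (R 4.3.3, trend and robust options, 1 mean per group, all 16 animals). The filter asked for 0.371 CPM, taken before TMM scaling, in 2 or more animals and a total of 15 counts, and 19199 genes passed. P values are two-sided. Exact 95% binomial intervals for pooled ratios came from scipy 1.17.1. The scripts were tested on simulated data. Symbols were matched by Ensembl ID, and 17256 IDs had one.

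The members and the gene lists were chosen with earlier results of these data known. Named genes are all 8 members, up to 6 called genes per list and comparison with the largest changes and a mean of at least 4 counts in both groups, of which a few are printed, and the genes most like the members. CCR2, CXCR1, CXCR2 and FCGR3 stand in 2 lists each. List counts with each animal left out, pooled term ratios without 1 term control and shares of all genes on the per-list scale were added after seeing the data. Replicate libraries of 1 group differed by more than counting noise. No sequences were printed. Some genes are not reported here by name.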

Additional observations from a re-analysis of the deposited data

Results flagged for a closer look

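In preterm controls, GPR84 of animal 101 was set apart from the other 3 animals, at -3.83 log2 CPM against -3.24 to -3.14. Its gap to the nearest animal was 0.847 of the range of the group, above the critical value of 0.829 for 4 samples. The value is a count of 0 beside counts of 1. Over the 8 genes, 16 groups of 4 animals were examined in this way and 1 was set apart, and chance alone sets apart about 1 in 20.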

How the results depend on the processing

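All 8 genes stayed called in LPS at 16 hours against preterm controls, and against term, under median of ratios and total count scaling, no filter on low counts, a prior count of 0.5, limma voom, a fit to the compared groups alone, no minimum on the fold and with any animal left out. No fold change of a member changed sign under these alternatives. At term against preterm controls, where 7 of the 8 genes were called, limma voom called 2, the fit to the groups compared 1, and fits without 1 animal 3 to 6. At 5 days after LPS, where 4 were called, limma voom called 2, the fit to the groups compared 1, and no minimum on the fold 7, and fits without 1 animal called 3 to 4. In LPS + Beta-Ac against LPS, where 20 genes of the table were called, limma voom called 3, the fit to the groups compared 0, and fits without 1 animal 2 (without LPS animal 240) to 57 (without LPS + Beta-Ac animal 255). The fit to the compared groups has fewer animals for the spread, and MCEMP1 and GPR84 had too few reads to be tested in it for term against preterm controls. The cause of the other changes was not tested. Total count scaling moved the median log2 fold change of all genes to -0.288 for LPS at 16 hours against preterm controls, -0.329 against term and -0.221 against LPS at 5 days, and the members' calls stayed. Of the list counts, 210 stayed within 1.5 times, 57 fell and 8 rose. The intervals of the FCAR, MCEMP1 and GPR84 ratios cover counting error and not the spread between animals. No paired analysis was possible because each animal number occurs in 1 group only.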
